A study of Mus musculus with 10 samples.

Results

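The heavy-chain V families other than IGHV1 were described in splenic B cells of the mouse strain BXD2, which is recombinant inbred and prone to spontaneous germinal centers (GCs) and autoantibodies. A B cell was counted here by its productive, high-confidence heavy-chain contig that carried a constant-region call and had the most UMIs (unique molecular identifiers) of its cell barcode. A clone was a distinct combination of V segment, J segment and CDR3 nucleotide sequence within a mouse, and each clone was counted once whatever its number of cells. Of 3205 heavy-chain clones in 4103 cells, 1130 clones (35.3%) in 1340 cells used a V segment outside IGHV1. They fell into 14 families and 45 segments.

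The groups were 3 BXD2-p19-/- mice (p19-/- 1 and p19-/- 2 female, p19-/- 3 male), which are deficient in IL-23 through loss of its p19 subunit, and 2 female BXD2-WT mice. All 5 mice share the BXD2 background, and the labels give neither age nor treatment. Each mouse gave 1 single-cell RNA library and 1 B cell receptor (BCR) library of its spleen. The labels name B cells and T cells as the material and the series design names GC B cells, without a sort or gate being described. Its title ties IL-23 to class switching toward IgG2b, so V families were compared between genotypes and between isotypes.

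A heavy-chain variable domain is assembled from 1 V, 1 D and 1 J segment, and the junction of the 3 encodes CDR3, the most variable loop of the antigen-binding site. Mouse V segments are grouped into families by sequence similarity. IGHV1, known as J558, is the largest, and most of its members lie in the part of the locus far from the D and J segments. Some smaller families are known for particular specificities: IGHV11 and IGHV12 encode phosphatidylcholine-binding antibodies of B-1 cells, and IGHV10 has been found among anti-DNA antibodies of autoimmune mice. GC B cells mutate their V regions and can switch from IgM to IgG, IgA or IgE, so a cell's constant region records whether it has switched.

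The BCR libraries p19-/- 1 to 3, WT 1 and WT 2 held 821, 355, 1152, 1189 and 586 barcodes with a counted heavy chain. The median was 14 UMIs on the heavy-chain contig for cells outside IGHV1 and 10 for IGHV1 cells. In p19-/- 1 these medians were 7 and 4, and 23 of the 31 cells outside IGHV1 that rested on 1 UMI came from this library. The RNA libraries held 7712457 to 18093053 UMIs. Il23a, which encodes p19, had 0 UMIs in all 5, so the genotype could not be checked from RNA. A total of 9 barcodes occurred in 2 BCR libraries, and 0 of them carried the same clone in both. The V call could be checked against the RNA of the same cell: in 1154 of 1175 cells outside IGHV1 with at least 1 Ighv UMI (98.2%), the Ighv gene with most UMIs was the called segment. RNA and V(D)J names can share a reference strain, so whether they fit the heavy-chain locus of BXD2 was not tested.

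Clones outside IGHV1 made up 29.9% to 39.3% of the heavy-chain clones in every mouse, without a separation of the genotypes. The share was 33.8% of 402 clones in p19-/- 1, 29.9% of 314 in p19-/- 2 and 38.0% of 899 in p19-/- 3. It was 33.0% of 1055 clones in WT 1 and 39.3% of 535 in WT 2. The lowest value belonged to p19-/- 2 and the highest to WT 2, and the groups overlapped. The means were 33.9% ± 4.05 (SD, n = 3) and 36.1% ± 4.43 (SD, n = 2), a difference of -2.18 percentage points (two-sided exact permutation test, p = 0.6; 3 mice against 2 cannot go below 0.2). The Clopper-Pearson 95% interval of a single mouse, which covers counting error only, ran from 24.9% to 35.3% in p19-/- 2 and from 35.1% to 43.5% in WT 2. Without WT 2 the difference was 0.951 points. Counted by cells, the shares were 18.0%, 27.0% and 40.2% in p19-/- mice and 32.5% and 42.2% in WT mice.

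The 6 largest families held most of these clones. IGHV5 had 223 clones, IGHV14 176, IGHV9 162, IGHV2 144, IGHV8 130 and IGHV3 124. IGHV6 had 59 clones, IGHV10 58, IGHV7 23 and IGHV4 11. The rarest were IGHV13 with 8 clones, IGHV11 with 6, IGHV15 with 4 and IGHV12 with 2.

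**Figure D1:**
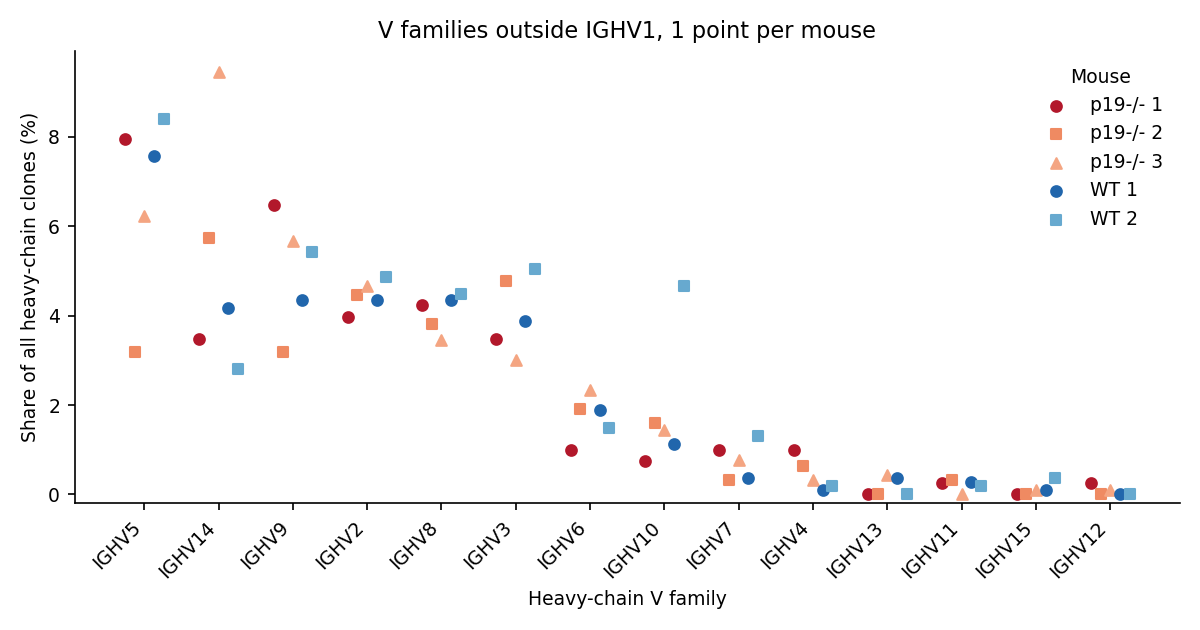
Share of all heavy-chain clones (y axis, %) taken by each V family outside IGHV1 (x axis), with 1 point per mouse and no error bars. IGHV2 and IGHV8 lie close together in the 5 mice, while IGHV14 stands highest in p19-/- 3 (9.45%) and IGHV10 in WT 2 (4.67%).

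No family passed the test between genotypes. The count model edgeR (quasi-likelihood test on clone counts, Benjamini-Hochberg adjustment over families) called 0 of the 13 families with at least 5 clones, IGHV1 among them, at an adjusted p of 0.05 (0%). At an unadjusted 0.05 it was also 0, and DESeq2 called 0. IGHV12 and IGHV15 had too few clones to be tested. IGHV2 and IGHV8 varied little from mouse to mouse. IGHV2 took 3.98%, 4.46% and 4.67% of all clones in p19-/- mice and 4.36% and 4.86% in WT mice. IGHV8 took 4.23%, 3.82% and 3.45% in p19-/- mice and 4.36% and 4.49% in WT mice. All 3 p19-/- values of IGHV8 lay below both WT values, with a log2 fold change of -0.22 ± 0.25 (SE; edgeR quasi-likelihood test, adjusted p = 0.896). IGHV5 ranged from 3.18% in p19-/- 2 to 8.41% in WT 2, with 7.96% in p19-/- 1, 6.23% in p19-/- 3 and 7.58% in WT 1. Its groups overlapped by clones. By lineages it took 6.47%, 3.6% and 6.68% in p19-/- mice and 7.70% and 8.58% in WT mice, without overlap, and its log2 fold change of -0.41 ± 0.19 (SE) had an adjusted p of 0.613 in edgeR (0.0471 unadjusted).

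IGHV14 ran from 2.80% of clones in WT 2 to 9.45% in p19-/- 3, with 3.48% in p19-/- 1, 5.73% in p19-/- 2 and 4.17% in WT 1. It had the lowest unadjusted p between genotypes, with a log2 fold change of 0.86 ± 0.43 (SE) in p19-/- over WT and an adjusted p of 0.589 in edgeR. Without p19-/- 3 the fold change was 0.35. IGHV4, a family of a single segment, was found in 4, 2 and 3 clones of the p19-/- mice and in 1 clone of each WT mouse. Its shares did not overlap (0.995%, 0.637% and 0.334% against 0.0948% and 0.187%), yet its fold change of 2.03 ± 1.04 (log2, SE) had an adjusted p of 0.589.

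The 45 segments lie on chromosome 12, and all of them matched a RefSeq gene of GRCm38.p6, the build of mm10. A total of 22 segments occurred in all 5 mice and 5 in a single mouse. The 12 with most clones held 66.8% of the clones outside IGHV1 and the first 4 held 35.9%. The 17 segments within 500 kb of Ighj1 (chr12:113429781-113429833) held 376 clones (33.3%). IGHV7-1 and IGHV7-3, with 23 productive clones between them, are annotated as V segment pseudogenes in this RefSeq build.

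Between genotypes edgeR called 0 of 66 segments with at least 10 clones (0%), of which 29 were outside IGHV1, and DESeq2 called 0. IGHV9-3 (chr12:114140692-114141122, 711 kb from Ighj1) was the most used segment, with 127 clones. It took 4.73%, 2.55% and 5.01% of all clones in p19-/- mice and 3.79% and 2.80% in WT mice. IGHV14-2 (chr12:113994469-113994898) had 97 clones, IGHV3-6 (chr12:114288152-114288447) 96 and IGHV8-8 (chr12:115294066-115294362, 1864 kb from Ighj1) 86. IGHV3-6 was found in 13, 11 and 18 clones of the p19-/- mice and in 33 and 21 of the WT mice. IGHV8-8 was found in 12, 8 and 15 and in 36 and 15 clones. Relative to all clones of a mouse, these 2 segments ranged from 2.00% to 3.93% and from 1.67% to 3.41%, with overlapping groups.

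The next 8 segments had 35 to 55 clones each. IGHV2-2 had 55, IGHV5-17 53, IGHV14-3 44, IGHV10-1 43, IGHV5-6 42, IGHV8-12 40, IGHV5-4 37 and IGHV6-3 35. IGHV5-17 was uneven, with 13, 1 and 15 clones in p19-/- mice and 21 and 3 in WT mice. IGHV5-4 took 0.498%, 0.955% and 1.00% of clones in p19-/- mice and 1.33% and 1.68% in WT mice. These values did not overlap, with a log2 fold change of -0.80 ± 0.59 (SE; edgeR, adjusted p = 0.910). Among the 29 tested segments outside IGHV1, the shares of IGHV14-2, IGHV2-3 and IGHV4-1 (higher in p19-/-) and IGHV2-9-1 (lower) did not overlap either. For families and segments alike, full separation of 3 mice from 2 cannot go below 0.2 in an exact permutation test. A lack of overlap is therefore a description only.

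At an unadjusted p of 0.05 between genotypes there was 1 segment, IGHV14-2. It had 7, 8 and 62 clones in p19-/- 1 to 3 and 14 and 6 in WT 1 and 2, or 1.74%, 2.55% and 6.90% against 1.33% and 1.12%. Its log2 fold change was 1.68 ± 0.57 (SE) with an adjusted p of 0.618. No segment with 10 or more clones was missing from a genotype.

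Most IGHV14-2 clones of p19-/- 3, the only male mouse, differed from one another at few CDR3 nucleotides, and what belongs to this mouse cannot be told apart from its sex. When clones of a mouse with the same V, J and CDR3 length were linked at up to 15% differing CDR3 nucleotides, the 62 clones became 9 lineages. One lineage, IGHV14-2 with IGHJ2, held 52 distinct CDR3 sequences in 94 cells. Of these cells 84 were IgM, 6 IgG3, 2 IgG1 and 2 IgG2c. All 93 cells with a light-chain contig carried IGKV1-110. The most frequent CDR3s of this lineage are given 5′ to 3′ from the deposited contigs, from the codon of the conserved cysteine to that of the tryptophan, with the bases that differ from the first in capitals.
Found in 13 cells: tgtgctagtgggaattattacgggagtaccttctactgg
Found in 12 cells: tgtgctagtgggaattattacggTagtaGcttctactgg
Found in 5 cells: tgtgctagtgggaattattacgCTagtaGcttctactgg
Found in 4 cells: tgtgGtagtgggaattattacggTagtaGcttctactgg

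By lineages, IGHV14-2 took 1.89%, 2.88% and 1.23% in p19-/- mice and 1.25% and 1.26% in WT mice. The fold change was 0.48 ± 0.45 (log2, SE; edgeR, adjusted p = 0.799). Leaving out p19-/- 1 gave a call by clones (log2 fold change 1.99, adjusted p = 0.0370 in edgeR), and leaving out p19-/- 3 gave 0.77 with an adjusted p of 0.976. Across all mice the 1130 clones formed 958 lineages. Of these lineages 86 held more than 1 CDR3 and 4 held 5 or more.

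**Figure D2:**
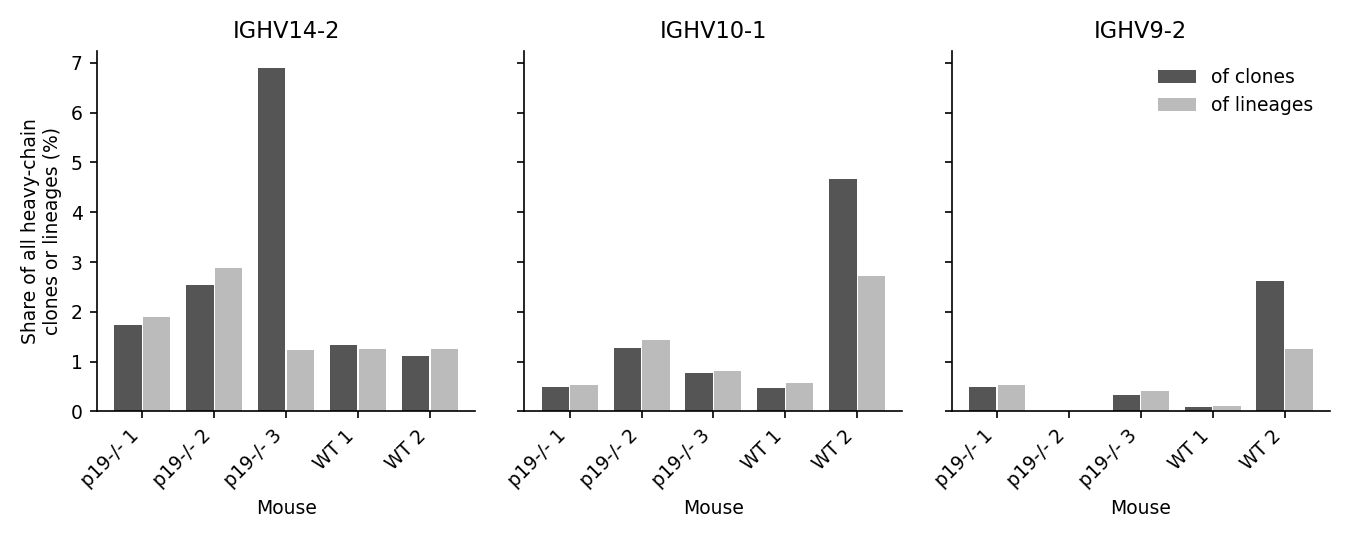
Share (y axis, %) of all heavy-chain clones (dark bars) and of all lineages (light bars) taken by 3 segments in each mouse (x axis); the bars are single values without error. IGHV14-2 in p19-/- 3 goes from 6.90% of clones to 1.23% of lineages, IGHV10-1 in WT 2 from 4.67% to 2.72% and IGHV9-2 in WT 2 from 2.62% to 1.26%.

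The other 3 lineages with 5 or more CDR3s were IGHV9-2 with IGHJ4 in WT 2, IGHV5-17 with IGHJ4 in p19-/- 1 and IGHV10-1 with IGHJ2 in WT 2. The IGHV9-2 lineage held 9 CDR3s in 36 cells, 34 of them IgM, and IGKV10-96 in 29 of 29 cells with a light chain. The IGHV5-17 lineage held 7 CDR3s in 14 cells, 13 IgG2c and 1 IgA, with IGKV14-111 in 12 of 12. So 2 of the 4 lineages were mostly IgM and 2 mostly IgG.

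IGHV10-1 (chr12:114479007-114479451) was concentrated in WT 2. It had 2, 4 and 7 clones in p19-/- mice, 5 in WT 1 and 25 in WT 2, or 4.67% of that mouse's clones against 0.474% to 1.27% in the other 4 mice. Its log2 fold change between genotypes was -1.51 ± 0.76 (SE; edgeR, adjusted p = 0.910), and 0.76 without WT 2. Of 29 IGHV10-1 cells with a light chain in WT 2, 18 carried IGKV3-7, against 4 of 535 cells with other heavy V segments. These 18 cells formed 5 of the 13 IGHV10-1 lineages of WT 2, and 10 of the cells belonged to 1 lineage. The 5 lineages had 4 distinct combinations of J segment and CDR3 length. In p19-/- 2 and p19-/- 3, 1 of 4 and 1 of 7 IGHV10-1 cells carried it, and in p19-/- 1 and WT 1 it was 0 of 2 and 0 of 5. WT 1 in turn had 50 IGKV3-7 cells with other heavy V segments. One CDR3 of each lineage with IGKV3-7 shows how far these receptors differ in J segment and length. The cell numbers are those of the whole lineage and not of the printed sequence. The IGHJ2 lineage of 10 cells held 7 distinct CDR3s, and the printed one was found in 3 cells. Each IGHJ4 lineage of 3 cells held 3 distinct CDR3s. Capitals mark lysine and arginine codons, whose residues are positively charged. They do not give the net charge, which is lysine and arginine minus aspartate and glutamate. Net charge averaged -0.84 over the 43 IGHV10-1 clones and -0.48 over all clones outside IGHV1, and it is -1 for the printed IGHJ2 sequence.
WT 2, IGHJ2, 10 cells: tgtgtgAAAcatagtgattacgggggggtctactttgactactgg
WT 2, IGHJ4, 3 cells: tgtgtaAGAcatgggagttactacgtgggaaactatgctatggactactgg
WT 2, IGHJ4, 3 cells: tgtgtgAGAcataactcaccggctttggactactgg
WT 2, IGHJ4, 1 cell: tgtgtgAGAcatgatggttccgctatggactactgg
WT 2, IGHJ3, 1 cell: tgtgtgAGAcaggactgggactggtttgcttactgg
p19-/- 2, IGHJ1, 1 cell: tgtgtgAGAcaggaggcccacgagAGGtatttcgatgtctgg
p19-/- 3, IGHJ4, 1 cell: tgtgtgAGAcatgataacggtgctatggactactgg

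In the 5 lineages of WT 2 the isotypes were 11 IgG2b, 5 IgG2c and 2 IgM cells. The pair ranked among the most repeated heavy and light V combinations outside IGHV1. Counted by lineage, IGHV10-1 with IGKV3-7 occurred 7 times, IGHV9-3 with IGKV1-135 and IGHV8-12 with IGKV14-111 8 times each, and 464 of 644 combinations a single time.

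Clones found in more than 1 mouse came from IGHV11-2 alone. Of 3203 distinct clones of any family, 2 were shared between mice, both IGHV11-2 (chr12:114048241-114048704) with IGHJ1, IgM and the light chain IGKV14-126. One occurred in 2 cells of WT 1 and 1 of WT 2, the other in 1 cell of WT 1 and 1 of p19-/- 1, with different cell barcodes in the 2 libraries. In all, 5 of the 6 IGHV11-2 clones were IgM with IGKV14-126, and the sixth was an IgG2b clone of p19-/- 2 with IGKV4-74. The shared CDR3s follow, with the stretch in which they differ in capitals.
WT 1 and WT 2: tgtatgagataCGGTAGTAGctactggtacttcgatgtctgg
WT 1 and p19-/- 1: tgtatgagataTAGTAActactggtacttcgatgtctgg

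Large clones were few. Clones of 2 or more cells made up 4.41%, 2.13% and 8.77% of the clones outside IGHV1 in p19-/- mice and 5.46% and 5.71% in WT mice. The difference between genotypes was -0.483 points (exact permutation test, p = 0.8). Lineages of 2 or more cells made up 10.9%, 3.30% and 13.6% of lineages outside IGHV1 in p19-/- mice and 15.6% and 11.5% in WT mice, a difference of -4.26 points (exact permutation test, p = 0.4). Within IGHV1 the shares were 6.77%, 6.36%, 8.26%, 5.23% and 4.0% in the same order of mice, with a mean difference from the other families of -0.827 points (exact sign-flip permutation test over 5 mice, p = 0.562; smallest possible 0.063).

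The largest clones used different segments from mouse to mouse. In p19-/- 3 an IGHV9-3 clone with IGHJ4 held 41 cells, all IgG1, with IGKV16-104 in 38 of them. In WT 2 an IGHV9-2 clone held 25 cells, 24 of them IgM. In WT 1 an IGHV14-2 clone held 10 IgG1 cells and in p19-/- 1 an IGHV5-17 clone held 7, of which 6 were IgG2c. In p19-/- 2 no clone outside IGHV1 exceeded 2 cells. The CDR3s of the 4 larger clones follow, with lysine and arginine codons in capitals.
p19-/- 3, IGHV9-3: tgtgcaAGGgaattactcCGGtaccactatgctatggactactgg
WT 2, IGHV9-2: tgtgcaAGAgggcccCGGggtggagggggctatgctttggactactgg
WT 1, IGHV14-2: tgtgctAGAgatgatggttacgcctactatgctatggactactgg
p19-/- 1, IGHV5-17: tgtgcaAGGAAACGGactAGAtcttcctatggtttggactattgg

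The IGHV5-17 CDR3 of p19-/- 1 carries 4 basic codons and a net charge of 3, and its lineage kept IgG2c in 13 of 14 cells. The net charge of the other 3 is 0 for IGHV9-3, 1 for IGHV9-2 and -2 for IGHV14-2.

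The share of clones outside IGHV1 was lower among switched than among unswitched clones of the same mouse. Among unswitched clones (IgM or IgD) the share outside IGHV1 was 39.2%, 35.1% and 39.5% in p19-/- mice and 42.2% in both WT mice. Among switched clones (IgG, IgA or IgE) it was 32.6%, 28.6%, 37.2%, 30.4% and 38.5% in the same order. It was lower in switched clones in 5 of 5 mice, with a mean difference of -6.16 points (33.5% ± 4.30 against 39.6% ± 2.92, SD, n = 5; exact sign-flip permutation test, p = 0.063, the smallest that 5 mice allow). Counted by lineage the difference was -5.27 points (exact sign-flip permutation test, p = 0.188). With every cell counted, so that large clones weigh more, it was -0.700 points (exact sign-flip permutation test, p = 0.938). In the count by lineage p19-/- 3, the mouse with the large IgM lineage of IGHV14-2, went the other way, with 37.2% in switched and 33.1% in unswitched lineages.

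**Figure D3:**
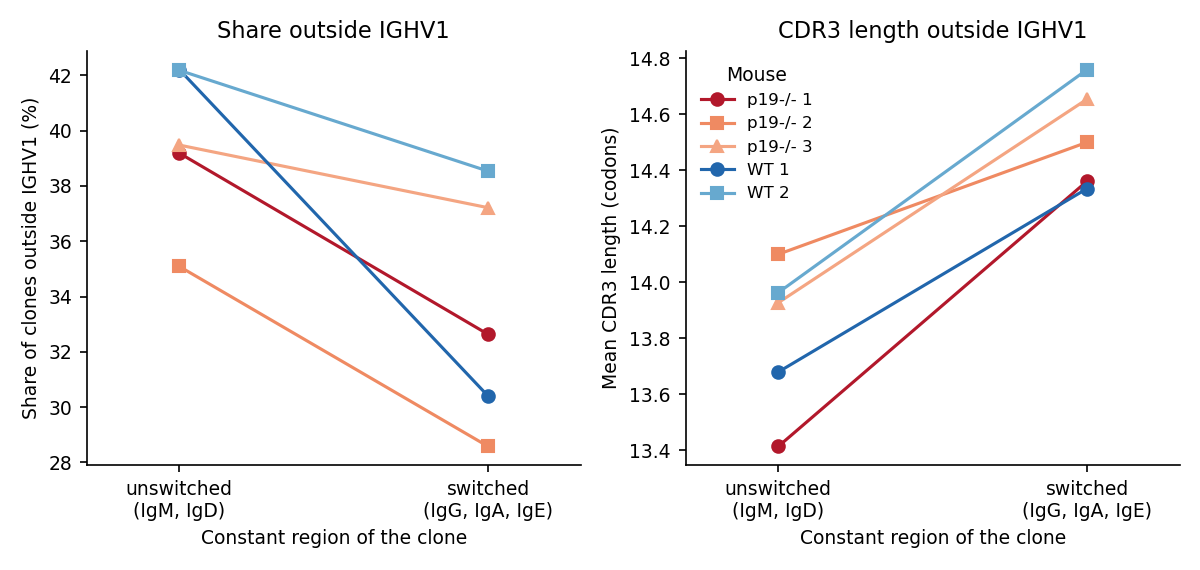
Left, share of clones outside IGHV1 (y axis, %); right, mean CDR3 length of clones outside IGHV1 (y axis, codons); both for unswitched and switched clones (x axis), 1 line per mouse, with y axes that do not start at 0. In all 5 mice the share is lower and the mean CDR3 longer in switched clones.

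By isotype, 318 of 789 IgM clones (40.3%) were outside IGHV1, 356 of 998 IgG1 clones (35.7%), 178 of 510 IgG2b clones (34.9%) and 228 of 734 IgG2c clones (31.1%). In the rarer isotypes it was 25 of 62 IgD, 32 of 118 IgG3, 12 of 38 IgA and 1 of 10 IgE clones. IgG2b, the isotype named in the series title, had 36.5%, 34.8% and 37.0% outside IGHV1 in p19-/- mice and 29.3% and 42.2% in WT mice. The p19-/- values lay between the WT values (difference 0.384 points; exact permutation test, p = 1). IgM clones had 37.3%, 32.7% and 40.2% in p19-/- mice and 41.8% and 42.6% in WT mice, without overlap (exact permutation test, p = 0.2, or 0.8 adjusted over 4 isotypes). IgG1 differed by -3.55 points and IgG2c by 0.0398 points (adjusted p = 1 for both, exact permutation test).

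IGHV6 was the family that differed between unswitched and switched clones. It had 2, 3, 9, 11 and 7 unswitched clones in p19-/- 1 to 3 and WT 1 and 2, and 2, 3, 12, 10 and 1 switched clones, although switched clones were more numerous in every mouse. Relative to all clones of the same kind it was lower in switched clones by 1.75 ± 0.57 on the log2 scale (a fold change of -1.75, SE; edgeR with mouse as a block, adjusted p = 0.0433). It was 1 of 13 families called (7.69%). Over the alternatives run, the adjusted p ran from 0.00217 (lineages) to 0.351 (without WT 2). The call also ended without p19-/- 1, p19-/- 2 or WT 1, and with every cell counted. IGHV6-6 (chr12:114434788-114435087) had 16 unswitched and 9 switched clones, with a log2 fold change of -2.34 ± 0.74 (SE; edgeR, adjusted p = 0.0614). By lineages its adjusted p was 0.0181 in edgeR, with a fold change of -2.68. IGHV6-3 (chr12:114391712-114392010) had 16 and 19 clones (log2 fold change -1.23 ± 0.65, SE, adjusted p = 0.497 in edgeR).

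IGHV14-4 leaned the other way, with 1 unswitched and 22 switched clones (2.52 ± 1.20, log2 and SE; edgeR, adjusted p = 0.481). It was named after its values were seen. For IGHV14-2 there were 63 unswitched and 40 switched clones, and 55 of the unswitched came from p19-/- 3. By lineages it was 12 and 31. Of 66 segments edgeR called 1 (1.52%), a member of IGHV1, and none outside IGHV1. The unadjusted p in edgeR was under 0.05 for 5 of the 66 segments, 3 of them outside IGHV1. Outside IGHV1 DESeq2 called 0. A test of whether the isotype difference itself differed between genotypes gave 0 families and 0 segments (lowest adjusted p in edgeR 0.750 and 0.882; 0 families and 2 segments at an unadjusted 0.05).

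CDR3 length, counted in codons with the bordering cysteine and tryptophan, did not separate the genotypes. The mean outside IGHV1 was 14.14, 14.41 and 14.38 codons in p19-/- mice and 14.16 and 14.56 in WT mice. The groups overlapped (difference -0.0450 codons; exact permutation test, p = 0.8). Against IGHV1 clones of the same mice the mean difference was 0.0329 codons (exact sign-flip permutation test, p = 0.688). Single clones ranged from 7 to 23 codons.

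Mean length over the pooled clones of the 5 mice varied from family to family, which was not tested. Related clones counted separately, so 52 of the IGHV14 clones belong to 1 lineage of 13 codons in p19-/- 3. IGHV8 had the longest mean of the families with at least 10 clones, 15.4 ± 2.50 codons (SD over 130 clones), followed by IGHV7 with 15.04 and IGHV5 with 14.8. IGHV6 had the shortest, 12.7 ± 2.68 (SD over 59 clones), then IGHV4 with 13.2 and IGHV14 with 13.3. IGHV8 exceeded IGHV6 in all 5 mice, with 14.8, 16.5, 15, 15.5 and 15.6 codons against 10.5, 12.3, 12.5, 13.9 and 11.9. These 2 families were picked after their means were seen, so no test is given.

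**Figure D4:**
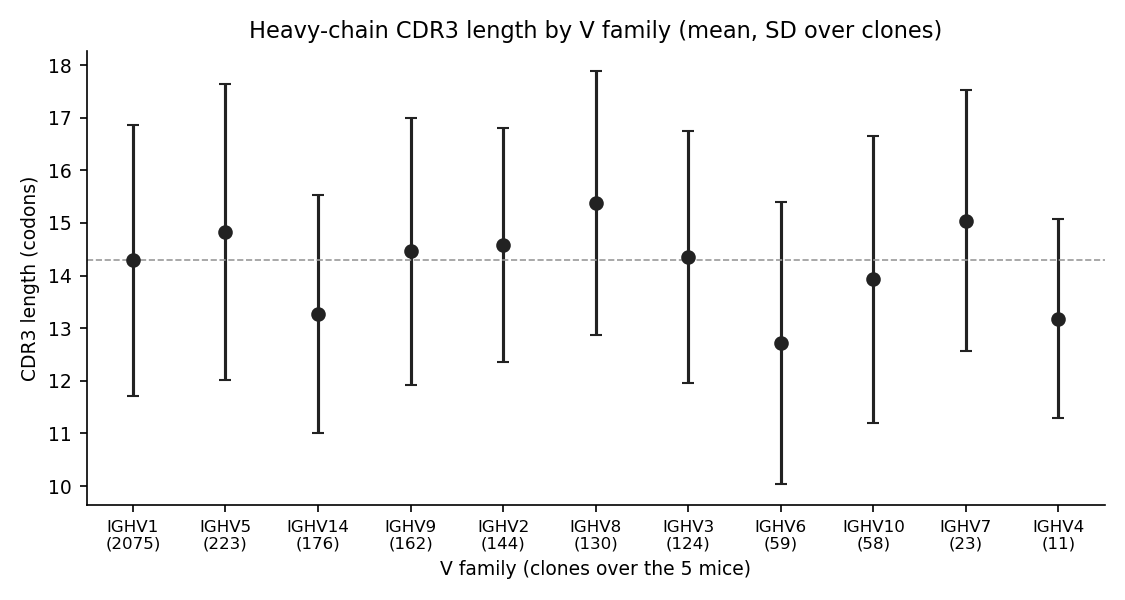
Mean heavy-chain CDR3 length (y axis, codons) by V family (x axis, clones in parentheses) with SD over clones of the 5 mice together; families with at least 10 clones are shown, and the dashed line is the IGHV1 mean of 14.3. IGHV8 lies highest and IGHV6 lowest, and the SD bars of all families overlap.

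Switched clones outside IGHV1 had longer CDR3s than unswitched ones in each mouse. The unswitched means were 13.41, 14.10 and 13.93 codons in p19-/- mice and 13.68 and 13.96 in WT mice. The switched means were 14.36, 14.50, 14.65, 14.33 and 14.76 in the same order. The difference was 0.705 ± 0.202 codons (SD, n = 5), positive in 5 of 5 mice (exact sign-flip permutation test, p = 0.063, the smallest possible), and 0.738 by lineages. In p19-/- 3 the lineage means were 14.62 switched and 14.40 unswitched, where its large IGHV14-2 lineage of 13 codons counts once. In IGHV1 clones the difference between switched and unswitched was 0.298 codons, also positive in 5 of 5. The excess outside IGHV1, by clones, was 0.407 ± 0.367 codons (SD, n = 5; exact sign-flip permutation test, p = 0.063). This excess was not tested by lineages. Leaving out IGHV6, a comparison added after seeing the data, gave a difference between switched and unswitched clones of 0.504 codons. By family, switched clones were longer in IGHV6 (13.57 against 12.03), IGHV10 (14.4 against 13.2), IGHV8, IGHV2, IGHV5 and IGHV14, and shorter in IGHV3 (14.3 against 14.7) and IGHV9 (14.4 against 14.8).

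J segments were used in the order IGHJ4 (36.6% of clones outside IGHV1), IGHJ2 (28.1%), IGHJ3 (18.7%) and IGHJ1 (16.5%). IGHJ1, the J segment nearest to the D segments, was used more outside than within IGHV1 in 5 of 5 mice. It took 19.1%, 21.3%, 14.9%, 14.7% and 18.6% of clones outside, against 16.2%, 14.1%, 14.5%, 11.2% and 12.9% within. The mean difference was 3.93 points (exact sign-flip permutation test, p = 0.063, or 0.25 adjusted over 4 J segments). IGHJ2 was lower outside in 4 of 5 mice (-3.57 points; exact sign-flip permutation test, p = 0.125). The exception was p19-/- 3, and by lineages, where its IGHV14-2 clones with IGHJ2 collapse, the difference was -7.92 points in 5 of 5.

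No gene passed the test between cells outside IGHV1 and IGHV1 cells of the same mice. UMI counts were summed per mouse over the 87 to 418 cells outside IGHV1 and the 209 to 721 IGHV1 cells that passed the RNA filter. With mouse as a block, edgeR called 0 of 9466 genes (0%), with 386 at an unadjusted 0.05, and DESeq2 called 0. The median log2 fold change over all genes tested was -0.0019, and 4659 of the 9466 were higher outside. Of 8 GC B cell genes 6 were higher outside IGHV1 (median log2 fold change 0.11), and 0 passed. The other 2, Rgs13 and Fas, had -0.07 and -0.03. S1pr2, a receptor that keeps GC B cells in the follicle, averaged 187 CPM (UMIs scaled to the library total) outside and 167 within, a log2 fold change of 0.17 ± 0.07 (SE; edgeR, adjusted p = 0.996). Plasma cell genes had a median of 0.06 and B-1 genes of -0.34 over 5 tested. Cd5, a surface marker of B-1 cells and also of T cells, had -0.50 ± 0.33 (log2, SE, edgeR adjusted p = 0.996). Like the T cell marker Cd3e below, Cd5 was higher outside in 1 of 5 mice, WT 2 (10.6 CPM outside and 5.80 within). The part of T cell reads in the Cd5 value was not tested.

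Of 5 T cell markers 0 passed, and the mice differed in direction. The fitted median was -0.51 on the log2 scale, and the summed level was 31.4 to 119 CPM outside and 48.4 to 386 CPM within, against 3196 to 4484 CPM for 5 B cell genes outside. Cd3e, a subunit of the T cell receptor complex, had 43.6 CPM outside and 139 within in p19-/- 1 and 8.98 and 51.5 in p19-/- 2, but 27.0 and 12.8 in WT 2. Trac was higher outside in 3 of 5 mice, Cd3g in 2 and Cd4 in 0. Myeloid markers summed to 7.48 to 190 CPM outside and 10.4 to 22.1 CPM within, and 2 of the 5 could be tested (0 passed). The highest sum came with Fcer1g, an Fc receptor subunit, which had 177 CPM outside and 14.0 within in p19-/- 1 and at most 22.3 in the other mice (log2 fold change 2.43 ± 0.58, SE; edgeR, adjusted p = 0.859). The part of such reads in the gene values was not tested.

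The constant-region genes went in both directions, and 0 passed. Ighe had a log2 fold change of -1.75 ± 0.32 (SE; edgeR, adjusted p = 0.381), Ighg3 -1.27 ± 0.29 and Ighg2b -0.84 ± 0.19 (adjusted p = 0.755 for both in edgeR). Ighg2b was lower outside in 5 of 5 mice and the other 2 in 4 of 5. Igha had 0.99 ± 0.84, Ighm 0.42 ± 0.17 and Ighg2c 0.22 ± 0.45, each higher outside in 3 of 5 mice, while Ighg1 had -0.02 and Ighd -0.06 (log2 fold changes, SE where given). Ighm had 2105 CPM outside and 1033 within in p19-/- 3, 3599 and 1718 in WT 2, and 736 and 543 in p19-/- 2. It was lower outside in p19-/- 1 and WT 1. The large IgM lineages of IGHV14-2 and IGHV9-2 lie in p19-/- 3 and WT 2. Counts were summed over cells, and the part of these lineages was not tested.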

How the data were processed

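Single cells of 5 BXD2 spleens were captured with a 5′ V(D)J droplet kit, per the labels' protocols, and Cell Ranger 3.0.2, STAR and mm10 are named in the submitters' processing notes. The V(D)J reference behind the segment names is not given in the sources used here. The authors deposited, per BCR library, contig tables with read and UMI counts and gene calls, and, per RNA library, matrices of raw UMI counts per gene and barcode. One sample was 1 mouse. Nothing says how the mice were housed or processed together, so p-values measure the spread between these mice.

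Among the contigs, 15 without a constant-region call were dropped, clones were counted as described in the report, and a clone with unswitched and switched cells counted in both kinds. Clone counts per family (at least 5 clones) and segment (at least 10) were fitted over all families with edgeR 4.0.16 in R 4.3.3, with the clone total as library size and mouse as a block between isotypes. DESeq2 1.42.0 was an alternative. RNA counts of barcodes with at least 200 genes and at most 10% mitochondrial UMIs were summed per mouse, without 379 immunoglobulin V, D and J genes, and scaled by TMM. No doublet caller was run; 38 barcodes with 2 or more productive heavy chains were left out as an alternative. Single values were tested over mice by two-sided exact permutation (10 splits) or sign-flip tests (32 flips), unadjusted unless stated. The segment and RNA fits were tested on simulated data with known changes: most changed genes were called, but most changed segments were not. A count of 0 segments therefore does not show that segment use was alike. Whether gene changes of the sizes seen in these mice would be called was not tested. The family fits were not tested on simulated data. Depth limits the single mouse: 94 to 348 clones outside IGHV1.

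Segments are named where a segment test called them, for the 12 with most clones, and where all of at least 10 clones belong to 1 genotype; clones are named where largest in a mouse or shared between mice. RNA genes named without a call belong to the marker lists or are constant-region genes. Segments, pairs and lineages named otherwise were chosen after their values were seen. The members, lists and tests were chosen with earlier results of these data known. Coordinates are those of RefSeq for GRCm38.p6, 1-based.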

Additional observations from a re-analysis of the deposited data

Results flagged for a closer look

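Non-productive heavy-chain contigs, which the comparisons above leave out, held more V segments outside IGHV1 than productive clones did. Of 328 such contigs 175 (53.4%) were outside IGHV1, with 51.7%, 39.3% and 58.3% in p19-/- 1 to 3 and 54.9% and 46.2% in WT 1 and 2, above the share among productive clones in each mouse. A count chosen after seeing the data took each V and J combination once per productive clone of the same barcode, over V segments that also occur in productive clones. It gave 114 of 174 (65.5%, Clopper-Pearson 95% interval 57.9% to 72.5%), against 35.3% of productive clones. This interval pools the mice and covers counting error only. Clones of 1 lineage were not merged, so a rearrangement they share can count more than once. Per mouse the share was 72%, 56.2%, 69.6%, 64.5% and 53.3%, a mean excess of 28.3 points in 5 of 5 mice (exact sign-flip permutation test, p = 0.063, the smallest that 5 mice allow). IGHV5-2 (chr12:113578504-113578990), known as VH81X and as a segment that rearranges often but is rarely kept in mature B cells, had 11 non-productive rearrangements in 4 mice and 2 productive clones. IGHV12-3 had 9 and 2, IGHV2-3 11 and 19, IGHV2-2 11 and 55, and IGHV10-1 3 and 43. These segments were named after their values were seen, and no test per segment was run.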

How the results depend on the processing

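Among the values that answer a comparison, 170 of the alternatives kept the direction and the side of the threshold, 22 changed direction and 16 changed a count of calls; the cause was not tested. The exact tests cannot reach 0.05 with these mice, so for them only a change of direction could show, and size was not weighed. For example, the 170 include the share outside IGHV1 by isotype with every cell counted, -0.700 points against -6.16 by clones. The difference between genotypes in the share outside IGHV1 ran from -5.32 to 0.951 points when 1 mouse was left out, that in IgG2b clones from -6.07 to 6.83, that in CDR3 length from -0.245 to 0.155 codons and that in expanded clones from -2.32 to 1.00 points. Against IGHV1, the ranges were -0.0535 to 0.108 codons for CDR3 length, -2.30 to 0.759 points for IGHJ3, -1.24 to 1.36 for IGHJ4 and -1.46 to 0.0247 for expanded clones. IGHV10-1 ran from -2.48 to 0.76 (log2). Counting every cell gave -6.26 points for IgG2b, 2.49 for IGHJ2 and -7.48 for IGHJ4. Lineages gave 0.265 for IGHJ3 and 0.252 for expanded clones. Cells passing the RNA filter gave 0.266 for IGHJ3 and -1.15 for IGHJ4. At least 5 UMIs gave 0.0589 codons between genotypes, and medians over clones -0.2 codons against IGHV1.

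Families called by isotype numbered 1, and 0 with every cell counted, at least 5 UMIs, the RNA filter, clones assigned by most of their cells, or IgM against IgG only, and 0 to 1 without a mouse (0 without any but p19-/- 3). Segments outside IGHV1 called by isotype numbered 0, and 1 by lineages or without a filter on clone number. Segments called between genotypes numbered 0 to 1 without a mouse. Genes called in RNA numbered 0, 1 with 1 cell per clone, 77 without a filter on low counts and 0 to 2 without a mouse (2 without p19-/- 1, 1 without WT 2). Depth limits what can be said of the 4 families with 2 to 8 clones.

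Replicate numbers 1 and 2 occur in both genotypes, but the labels tie no number to a litter or day, so the mice share only a number. With the replicate block the IgG2b difference was -0.0715 points (smallest exact p 0.5), and families and segments called stayed at 0.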

Other observations

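D segments are given as a description. IGHD1-1 took 36.5% of the clones outside IGHV1 with a D call and 35.0% of those of IGHV1, IGHD2-4 15.7% and 16.6%, and IGHD2-3 12.6% and 11.95%. A D segment was called in 90.4% and 92.7% of clones. The net charge of CDR3 (lysine and arginine minus aspartate and glutamate) averaged -0.48 outside IGHV1 and -0.33 within, lower outside in 4 of 5 mice (mean difference over mice -0.14; exact sign-flip permutation test, p = 0.312). The exception was p19-/- 1, with -0.147 and -0.226.

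Lambda light chains accompanied 4.38%, 6.25% and 3.30% of cells outside IGHV1 in p19-/- 1 to 3 and 5.54% and 5.08% in WT 1 and 2. Within IGHV1 it was 11.99% in p19-/- 1 and 1.48% to 2.13% in the other 4 mice (exact sign-flip permutation test of the difference, p = 0.688). IGHV14-4 was paired with IGLV1 in 5 lineages from 4 mice, the most repeated lambda combination among those listed. Of 38 barcodes with 2 or more productive heavy chains, 22 combined IGHV1 with another family.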
